A study of Mus musculus with 16 samples.

Results

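The Hox genes of the 4 mouse clusters were followed across 4 kinds of sensory ganglion. The set held 38 genes, chosen by name with earlier results of these data known, out of 22609 gene symbols in the count tables: 10 of HoxA, 10 of HoxB, 9 of HoxC and 9 of HoxD. RNA-seq reads had been counted in sensory neurons sorted by fluorescence from TG (trigeminal ganglion), NG/JG (the nodose and jugular complex, pooled and listed as nodose ganglion), T10-L1 DRG and L3-L5 DRG (dorsal root ganglia at the thoracolumbar and the lumbar level). Each ganglion had 4 libraries, 16 in all. All came from untreated adult C57BL/6J mice, listed as male, that carried Pirt-cre and Rosa26 LSL-tdTomato. In these animals the Cre under the sensory neuron gene *Pirt* switches on a red reporter for good, so the label marks cells that have ever expressed *Pirt*, and only the medium to bright cells were sorted. Ganglia of the left and right side were pooled, and nothing states that the 4 libraries of a ganglion came from separate animals, so the p-values measure the spread between these libraries, which may be technical.

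Hox genes encode transcription factors with a homeodomain and are numbered by paralog group from the 3′ end of each cluster to the 5′ end. In the embryo the low-numbered genes are switched on first and reach farthest toward the head, and genes of higher number start later and farther toward the tail, a relation known as collinearity. Hox proteins of paralog groups at the 5′ end set lumbar, sacral and tail identity, those in the middle set cervical and thoracic identity, and those at the 3′ end act in the hindbrain. Trigeminal neurons arise from neural crest and placode at the level of the midbrain and the front of the hindbrain, nodose and jugular neurons from placode and crest at the level of the rear hindbrain, and dorsal root ganglia from trunk neural crest.

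Reads on genes ranged from 4735624 to 13333318 per library, and CPM scales a count to 1000000 of them. A count of 3, used as the floor of detection, stood for between 0.225 and 0.6335 CPM, depending on depth, and counting error is all that this floor covers. The share of reads outside genes was 29.6% to 47.0% in 14 libraries, 51.5% in T10-L1 DRG library 1 and 66.6% in L3-L5 DRG library 4. TG library 1 stood apart from the other TG libraries, with reads on 11527 genes against 14441 to 15354. Although the animals are listed as male, all 16 libraries had reads on *Xist* (1279 to 8362) and 0 on 13 genes of chromosome Y. Levels are compared between genes only as RPKM, which divides CPM by the exon length in kilobases.

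TG had the fewest Hox genes, NG/JG a block in the middle of HoxB, and both DRG levels had members of all 4 clusters. More than 3 reads in all 4 libraries were found for 1 of 38 members in TG (*Hoxd1*), 3 in NG/JG (*Hoxb3*, *Hoxb5* and *Hoxb6*), 12 in T10-L1 DRG and 15 in L3-L5 DRG. At least 1 library passed the same floor for 6 members in TG, 10 in NG/JG, 31 in T10-L1 DRG and 34 in L3-L5 DRG. Median reads on genes were 5757484 in TG, 8011414 in NG/JG, 11335790 in T10-L1 DRG and 10178440 in L3-L5 DRG. Genes with reads numbered 11527 to 15354, 10132 to 13029, 14237 to 16694 and 13617 to 18571 per library, in the same order. The part of depth in these counts was not tested. In a sorted bulk sample, fewer cells with a transcript and less of it per cell cannot be told apart. *Hoxa13*, a factor of digit and genital development, had 0 reads in all 16 libraries.

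**Figure D1:**
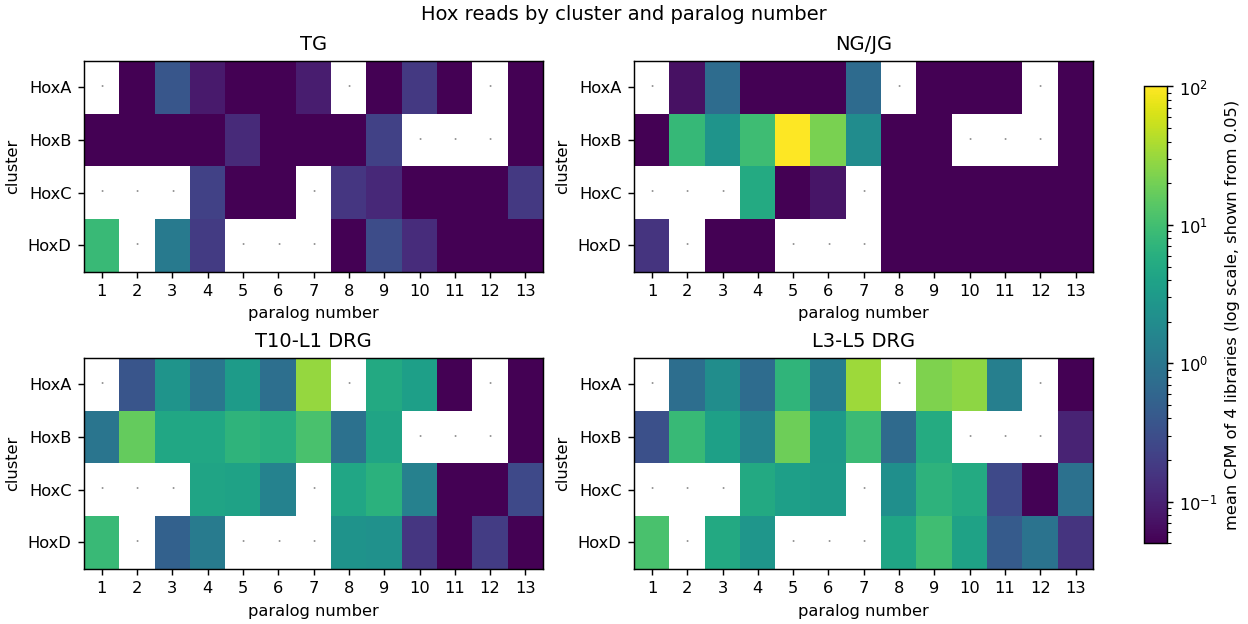
Mean CPM over the 4 libraries of each ganglion (colour, log scale, with values under 0.05 drawn at 0.05), by cluster (rows) and paralog number (columns). Grey dots mark positions with no gene in the set. TG is dark but for *Hoxd1*, NG/JG is bright at HoxB 2 to 6, and columns 9 and 10 fill in both DRG levels.

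The most 5′ member above the floor in all 4 libraries differed between ganglia, though between the DRG levels it moved only in HoxA and HoxC. In HoxA it was *Hoxa9* in T10-L1 DRG and *Hoxa10* in L3-L5 DRG, while TG and NG/JG had none. In HoxB it was *Hoxb6* in NG/JG and *Hoxb7* in both DRG levels, with none in TG. HoxC reached *Hoxc9* in T10-L1 DRG and *Hoxc10* in L3-L5 DRG, with none in TG or NG/JG. HoxD reached *Hoxd1* in TG and *Hoxd8* in both DRG levels, with none in NG/JG. With 2 of 4 libraries asked for in place of 4, HoxA reached paralog 10 in T10-L1 DRG and 11 in L3-L5 DRG, HoxD 9 and 11, HoxC 10 in both and HoxB 9 in both.

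The RPKM of the 38 genes summed to 5.71 ± 2.79 in TG (SD, n = 4), 64.3 ± 32.6 in NG/JG, 50.7 ± 23.9 in T10-L1 DRG and 75.6 ± 21.3 in L3-L5 DRG. The TG sums, 8.80, 2.02, 5.83 and 6.17 in libraries 1 to 4, lay below those of all 12 other libraries, while the sums of the other 3 ganglia overlapped. HoxB held 61.6 ± 30.9 of the NG/JG sum, and HoxA held 31.0 ± 10.6 RPKM in L3-L5 DRG against 16.1 ± 4.97 in T10-L1 DRG. Of each library's sum, paralogs 1 to 3 made up 78.5% ± 18.9 in TG, 5.52% ± 2.59 in NG/JG, 23.5% ± 9.95 in T10-L1 DRG and 14.8% ± 2.22 in L3-L5 DRG. Paralogs 4 to 8 made up 9.81% ± 6.97 in TG, 94.4% ± 2.61 in NG/JG, 60.6% ± 6.28 in T10-L1 DRG and 46.8% ± 11.6 in L3-L5 DRG. For paralogs 9 to 13 the shares were 11.7% ± 12.3 in TG (1.35% to 26.8% of a small sum), 0.0648% ± 0.0522 in NG/JG, 15.9% ± 9.2 in T10-L1 DRG and 38.3% ± 13 in L3-L5 DRG. TG overlapped both DRG levels in that share. The lowest share of these 5′ genes in L3-L5 DRG (25.5%) lay just above the highest in T10-L1 DRG (24.1%).

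Weighted by RPKM, the mean paralog number was 2.63 ± 1.59 in TG, 5.01 ± 0.124 in NG/JG, 5.63 ± 0.702 in T10-L1 DRG and 6.75 ± 0.627 in L3-L5 DRG (SD, n = 4). In TG the 4 libraries had 1.21, 4.68, 1.53 and 3.08, and library 2, with 35 Hox reads in all, was the highest. The DRG values were 5.95, 4.63, 5.72 and 6.23 at T10-L1 and 6.46, 6.56, 6.30 and 7.68 at L3-L5, so all 4 lumbar libraries lay above all 4 thoracolumbar ones. NG/JG and T10-L1 DRG overlapped. Within HoxA the number was 6.84 ± 0.41 at T10-L1 and 7.78 ± 0.355 at L3-L5, and within HoxC it was 7.07 ± 0.321 and 7.66 ± 0.354, with ranges that met or overlapped. HoxB had 4.70 ± 0.204 and 5.05 ± 0.869, a difference smaller than its spread. HoxD had 3.72 ± 2.25 at T10-L1 and 5.46 ± 2.24 at L3-L5, and its libraries overlapped. These numbers describe the libraries and were not tested.

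**Figure D2:**
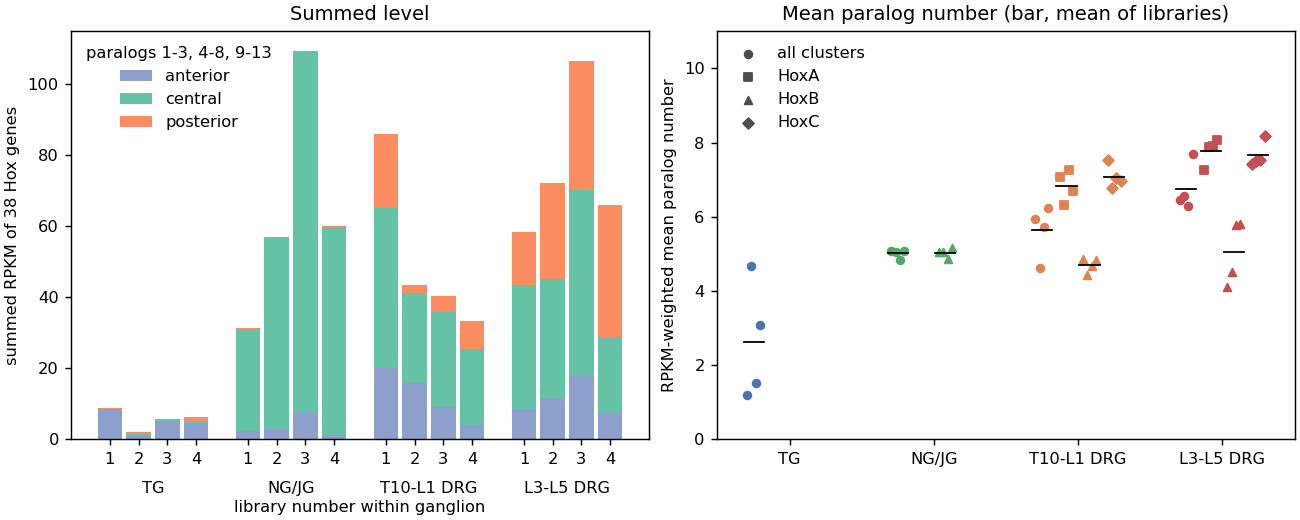
Left, summed RPKM of the 38 Hox genes in each library, split into paralogs 1-3, 4-8 and 9-13. Right, RPKM-weighted mean paralog number in each library (symbols, 1 per library) and the mean over libraries (bars), over all clusters. Single clusters are drawn for HoxA, HoxB and HoxC in the DRG levels and for HoxB in NG/JG, and HoxD is not drawn. The 4 L3-L5 DRG libraries sit at 6.30 to 7.68 over all clusters and the 4 T10-L1 DRG libraries at 4.63 to 6.23.

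HoxA lies on the minus strand of chromosome 6 (mm9, as for all 4 clusters) from 52112350 to 52210874. Its 3′ members were sparse. *Hoxa2*, which sets the identity of the second branchial arch, had at most 2 reads in TG and NG/JG, 1 T10-L1 DRG library with 18 and L3-L5 DRG libraries with 0 to 23. *Hoxa3*, a factor of the thymus and the pharynx, had 1 to 57 reads at T10-L1 and 4 to 34 at L3-L5, with 8 in 1 TG library and 21 in 1 NG/JG library. *Hoxa4* reached 24 reads in 1 T10-L1 DRG library and 35 in 1 L3-L5 DRG library. *Hoxa5*, needed for lung and cervical skeleton, had a mean of 3.28 CPM in T10-L1 DRG and 7.22 in L3-L5 DRG, against at most 1 read in any TG or NG/JG library. *Hoxa6* had 0 reads in TG and NG/JG and at most 32 in a DRG library.

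The stretch from *Hoxa7* to *Hoxa10* held the HoxA genes with the most reads, so the 250 bases before their start sites are shown, with those of *Hoxd1*, the lone member above the floor in all TG libraries, for contrast. The bases are from RefSeq (GRCm38.p6, 5′ to 3′ on the strand of each gene) and capitals mark CpG. They lie at chr6:52218574-52218823 (*Hoxa7*), chr6:52227371-52227620 (*Hoxa9*) and chr6:52234940-52235189 (*Hoxa10*, 1 of 2 listed starts), all on the minus strand, and at chr2:74762730-74762979 (*Hoxd1*, plus strand).
Hoxa7: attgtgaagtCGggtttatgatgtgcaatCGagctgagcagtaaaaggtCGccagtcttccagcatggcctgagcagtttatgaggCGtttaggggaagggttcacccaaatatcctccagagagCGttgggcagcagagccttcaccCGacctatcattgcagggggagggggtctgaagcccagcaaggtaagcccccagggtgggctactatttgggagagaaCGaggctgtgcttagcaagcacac
Hoxa9: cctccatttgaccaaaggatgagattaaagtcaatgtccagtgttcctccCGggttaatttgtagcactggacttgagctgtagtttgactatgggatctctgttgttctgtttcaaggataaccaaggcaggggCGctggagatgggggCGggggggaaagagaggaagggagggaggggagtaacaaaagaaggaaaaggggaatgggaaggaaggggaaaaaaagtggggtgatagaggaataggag
Hoxa10: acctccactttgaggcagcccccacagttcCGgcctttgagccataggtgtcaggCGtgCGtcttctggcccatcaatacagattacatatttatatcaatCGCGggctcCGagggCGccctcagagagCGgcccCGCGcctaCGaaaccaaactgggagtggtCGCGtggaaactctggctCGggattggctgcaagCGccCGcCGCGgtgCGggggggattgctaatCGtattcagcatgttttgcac
Hoxd1: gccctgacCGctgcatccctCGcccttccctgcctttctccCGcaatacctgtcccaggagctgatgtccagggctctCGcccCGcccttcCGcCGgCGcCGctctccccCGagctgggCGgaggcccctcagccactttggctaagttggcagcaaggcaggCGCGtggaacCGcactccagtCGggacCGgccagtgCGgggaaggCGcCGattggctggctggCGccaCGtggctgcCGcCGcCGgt

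The *Hoxd1* stretch held 24 CpG and that of *Hoxa10* 20, against 7 for *Hoxa7* and 3 for *Hoxa9*. The reference table had promoters of 22 of the 38 members, in 24 windows that run from 250 bases before the start to 50 after it. CpG numbered 4 to 45 per Hox window (median 14.5) and 0 to 67 over 32851 windows of all genes (median 7). The motif TGATNNAT, bound by Hox proteins together with Pbx, was found on either strand in 4 of 24 Hox windows (16.7%) and in 8.85% of all windows, and the Hox windows were those of *Hoxa2*, *Hoxb1*, *Hoxb8* and 1 start of *Hoxd11*. TTTATNG, bound by Cdx factors, was in 2 of 24 (8.33%), *Hoxb8* and *Hoxd4*, and in 10.9% of all. The 2 motifs did not overlap in any Hox window, and none of the windows printed in part held either of them.

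*Hoxa7*, a factor of the thoracic vertebrae on chromosome 6 from 52164490 to 52171853, was the HoxA member with the highest mean RPKM. It had 41.3, 28.2, 28.6 and 21.1 CPM in T10-L1 DRG libraries 1 to 4 and 39.3, 27.9, 40.0 and 24.1 CPM in L3-L5 DRG. TG had 0 or 1 read per library and NG/JG 19, 1, 1 and 0 reads. The DRG levels lay above TG and NG/JG without overlap and overlapped each other. T10-L1 DRG was 344-fold higher than TG on pooled reads, with a 95% counting interval of 94.9 to 2840 since TG had 2 reads (adjusted p = 0.0254, edgeR), and L3-L5 DRG 422-fold (117 to 3490, adjusted p = 0.0829, edgeR). Such intervals, here and below, cover counting error alone and leave out the spread between libraries. A member at or near 0 reads in TG or NG/JG is tested only if it is high in the other ganglion. Here and below, the p-value of such a member is thus no separate support for its difference. Each call against TG at an adjusted p under 0.05 was lost when certain single libraries were left out. Of its exon length, 20.4% is shared with *2700086A05Rik*, which had at most 22 reads in a library.

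*Hoxa9*, which acts with its paralogs at the thoracic to lumbar level and in blood stem cells, had 11.5, 1.62, 4.60 and 2.63 CPM in T10-L1 DRG and 18.3, 20.1, 37.1 and 15.4 CPM in L3-L5 DRG. It had 0 reads in all TG libraries and 1 in NG/JG. Every L3-L5 DRG library lay above every T10-L1 DRG library. Set against T10-L1 DRG, L3-L5 DRG had a log2 fold change of 2.14 (SE 0.72, unadjusted p = 0.0148, adjusted p = 0.785, edgeR). T10-L1 DRG was at least 35.1-fold above TG (adjusted p = 0.046) and L3-L5 DRG at least 200-fold (adjusted p = 0.0829), from edgeR. These bounds set the 0 reads of a group at 3 over the group.

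*Hoxa10*, a factor of lumbar vertebrae and lumbar motor neurons, had 6.11, 0.190, 5.75 and 2.48 CPM in T10-L1 DRG and 17.8, 33.0, 47.0 and 11 CPM in L3-L5 DRG. The TG libraries had 0, 0, 1 and 3 reads and the NG/JG libraries 0. Again all 4 L3-L5 DRG libraries were above the 4 of T10-L1 DRG, with a log2 fold change of 2.88 (SE 0.95, unadjusted p = 0.0131, adjusted p = 0.785, edgeR). The log2 fold change over TG was 6.84 (SE 1.36, adjusted p = 0.0829), and L3-L5 DRG was at least 335-fold above NG/JG (adjusted p = 0.168), both from edgeR.

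HoxB lies on the plus strand of chromosome 11 from 96055630 to 96229570. *Hoxb1*, which marks a single segment of the hindbrain, had 25 reads in T10-L1 DRG library 1, 6 in L3-L5 DRG library 4 and 0 in the other 14, and these are the libraries with the largest shares of reads outside genes. *Hoxb2*, a hindbrain factor, had 0 reads in TG. It had 3.20, 7.62, 22.1 and 0 CPM in NG/JG, 28.7, 14.6, 14.2 and 8.10 CPM in T10-L1 DRG and 12.6, 5.86, 3.54 and 11.8 CPM in L3-L5 DRG. The 3 ganglia overlapped, and T10-L1 DRG was at least 119-fold above TG (adjusted p = 0.0254, edgeR), L3-L5 DRG at least 63.1-fold (adjusted p = 0.0859, edgeR).

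*Hoxb3*, a factor of the rear hindbrain, had reads in all 12 libraries outside TG. It had 4.17, 1.59, 1.80 and 2.79 CPM in NG/JG, 10.9, 3.33, 2.55 and 1.88 CPM in T10-L1 DRG and 4.77, 4.37, 1.48 and 4.43 CPM in L3-L5 DRG, and 0 reads in TG. It was at least 20.8-fold above TG in NG/JG (adjusted p = 0.161), 31.1-fold in T10-L1 DRG (adjusted p = 0.0467) and 28.9-fold in L3-L5 DRG (adjusted p = 0.0961), from edgeR. *Hoxb4*, which marks the border of hindbrain and spinal cord, had 11.5, 11, 14.8 and 0 CPM in NG/JG, 2.60, 7.23, 5.26 and 3.30 CPM in T10-L1 DRG and 1.95, 0.198, 0.0824 and 4.01 CPM in L3-L5 DRG. NG/JG thus held both the 3 highest and the lowest library outside TG, where it had 0 reads. T10-L1 DRG was at least 38.5-fold above TG (adjusted p = 0.0405, edgeR).

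*Hoxb5*, a factor of vagal neural crest on chromosome 11 from 96163909 to 96167434, had the highest mean RPKM of all members. NG/JG libraries 1 to 4 had 41.0, 105, 235 and 127 CPM. T10-L1 DRG had 15.3, 2.67, 5.59 and 4.50 CPM and L3-L5 DRG 7.68, 26.0, 36.5 and 3.59 CPM, while TG had 1, 1, 0 and 1 reads. The NG/JG libraries lay above all 12 others, and the DRG levels overlapped. The pooled ratio of NG/JG over TG was 1030 (95% counting interval 352 to 4990, adjusted p = 0.0117, edgeR). T10-L1 DRG was 49.1-fold higher than TG (16.6 to 240, adjusted p = 0.0429) and L3-L5 DRG 176-fold (59.9 to 853, adjusted p = 0.0829), from edgeR. Against NG/JG the log2 fold change was -4.27 in T10-L1 DRG (SE 0.79, adjusted p = 0.115) and -2.89 in L3-L5 DRG (SE 0.86, adjusted p = 0.309), from edgeR as well.

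*Hoxb6*, its neighbour and a factor of the trunk, was highest in NG/JG too. It had 20, 28.8, 15.1 and 22.0 CPM in NG/JG, 9.78, 3.90, 7.81 and 3.00 CPM in T10-L1 DRG and 2.14, 0.198, 6.51 and 3.80 CPM in L3-L5 DRG, with 1 read in TG. NG/JG did not overlap with any other ganglion, and the DRG levels overlapped. On pooled reads NG/JG was 535-fold higher than TG (95.7 to 21200, adjusted p = 0.13) and T10-L1 DRG 138-fold (24.5 to 5480, adjusted p = 0.0325), from edgeR. *Hoxb7*, a trunk factor that shares 26.2% of its exon length with *Hoxb8*, had 16.8, 13, 10.4 and 4.50 CPM in T10-L1 DRG and 5.25, 3.57, 23.3 and 2.96 CPM in L3-L5 DRG. In NG/JG it had 58 reads in library 3 and at most 1 in the others, and in TG 0. T10-L1 DRG was at least 83.2-fold above TG (adjusted p = 0.0283) and L3-L5 DRG at least 84.8-fold (adjusted p = 0.0859), from edgeR.

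*Hoxb8*, whose loss in mice leads to excessive grooming, had 0 reads in NG/JG, 1 in TG and at most 20 in a DRG library, and 40.4% of its exon length is shared with *Hoxb7*. *Hoxb9*, a thoracic factor, was uneven, with 89, 7, 0 and 37 reads in T10-L1 DRG and 0, 0, 69 and 76 in L3-L5 DRG, and 5 reads in 1 TG library. *Hoxb13*, which acts in the tail and the prostate, had 2 reads, both in L3-L5 DRG library 4.

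HoxC lies on the plus strand of chromosome 15 from 102751534 to 102867274 and has no member below paralog 4. *Hoxc4*, its most 3′ member and a cervical factor, was the one HoxC gene above the floor in NG/JG, with 1.53, 0, 12.6 and 6.82 CPM. T10-L1 DRG had 4.28, 0.0952, 5.10 and 7.58 CPM and L3-L5 DRG 4.57, 5.66, 3.46 and 6.33 CPM, and these 3 ganglia overlapped. TG had 0, 0, 3 and 2 reads, and the log2 fold change of L3-L5 DRG over TG was 4.05 (SE 1.49, unadjusted p = 0.0206, adjusted p = 0.178, edgeR). *Hoxc5* had 0 reads in TG and NG/JG and a mean of 4.05 CPM in T10-L1 DRG and 3.70 CPM in L3-L5 DRG, with 1 library at 0 in each. *Hoxc6*, a factor of the forelimb level, had a mean of 1.47 CPM in T10-L1 DRG and 3.27 CPM in L3-L5 DRG and at most 3 reads in a TG or NG/JG library. *Hoxc8*, a determinant of brachial motor neurons, had 0 to 95 reads at T10-L1, 10 to 41 at L3-L5, at most 2 in TG and 0 in NG/JG.

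*Hoxc9*, which holds thoracic motor neurons apart from those of the limbs, had 10.9, 3.71, 4.03 and 6.90 CPM in T10-L1 DRG and 4.47, 4.17, 7.33 and 11 CPM in L3-L5 DRG. TG had at most 1 read per library and NG/JG 0. The DRG levels overlapped and differed by 0.03 on the log2 scale (SE 0.74). T10-L1 DRG was 48.1-fold higher than TG (16.3 to 235, adjusted p = 0.0382) and L3-L5 DRG 50.2-fold (17.0 to 245, adjusted p = 0.0861), from edgeR. Against NG/JG the bounds were at least 64.7-fold for T10-L1 DRG (adjusted p = 0.115) and 67.4-fold for L3-L5 DRG (adjusted p = 0.168), again from edgeR. *Hoxc10*, which specifies lumbar motor neurons, had 4.47, 10.1, 4.78 and 1.48 CPM in L3-L5 DRG. The T10-L1 DRG libraries had 3.06, 0, 0 and 2.55 CPM, and in TG and NG/JG 1 read each. The DRG levels overlapped, and L3-L5 DRG was 140-fold higher than TG (24.9 to 5560, adjusted p = 0.0859) and 188-fold higher than NG/JG (33.4 to 7470, adjusted p = 0.169), from edgeR.

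HoxD lies on the plus strand of chromosome 2 from 74506367 to 74603200. *Hoxd1*, which in mice acts in the development of nociceptors, was the one member above the floor in all 4 TG libraries. It had 15.9, 0.787, 9.28 and 8.25 CPM in TG, 10.4, 17.4, 6.17 and 0.750 CPM in T10-L1 DRG and 3.02, 12.8, 28.7 and 0.211 CPM in L3-L5 DRG. NG/JG had 6 reads in library 4 (0.62 CPM) and 0 in the others, in CPM below every TG and T10-L1 DRG library. TG library 2 had only 4 reads, so its place above NG/JG library 4 rests on depth scaling near the floor. The log2 difference was -0.33 for T10-L1 DRG against TG (SE 1.06) and 0.13 for L3-L5 DRG against TG (SE 1.28), each smaller than its standard error. *Hoxd1* did not pass the filter of edgeR in the comparison of NG/JG with TG, where DESeq2 gave a log2 fold change of -5.61 (adjusted p = 0.0151).

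*Hoxd3* and *Hoxd4*, factors of the upper cervical level, share 35.8% and 67.4% of their exon length with other genes. In the exon models used for RPKM each overlaps the other, and *Hoxd3* also overlaps *1700109F18Rik*. How reads there were assigned in the counting is not known. *Hoxd3*, given in full after its values were seen, had 1, 6, 2 and 16 reads in T10-L1 DRG, 17, 68, 28 and 44 in L3-L5 DRG, 20 in TG library 2 and 0 in NG/JG. Its CPM did not overlap between the DRG levels (log2 fold change 3.14, SE 1.15, unadjusted p = 0.022, adjusted p = 0.785, edgeR). *Hoxd4* had at most 18 reads in T10-L1 DRG, 95 in L3-L5 DRG and 2 elsewhere. *Hoxd8*, a trunk factor, was low and even, at 3.67, 2.47, 1.48 and 2.25 CPM in T10-L1 DRG and 4.09, 5.46, 4.86 and 2.96 CPM in L3-L5 DRG, with 0 reads in TG and 1 in NG/JG. T10-L1 DRG was at least 18.8-fold above TG (adjusted p = 0.0552) and L3-L5 DRG at least 37.3-fold (adjusted p = 0.0889), from edgeR.

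*Hoxd9*, a lumbar factor, had 0.292, 8.83, 9.15 and 21.1 CPM in L3-L5 DRG and 7.64, 0, 0 and 1.58 CPM in T10-L1 DRG, with 6 reads in TG library 2 and 0 in NG/JG. The DRG levels overlapped. *Hoxd10*, which acts with *Hoxc10* in lumbar motor neurons, had 2, 37, 43 and 40 reads in L3-L5 DRG and at most 9 in any library of the other ganglia. It passed the filter of edgeR in none of the 6 pairs.

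**Figure D3:**
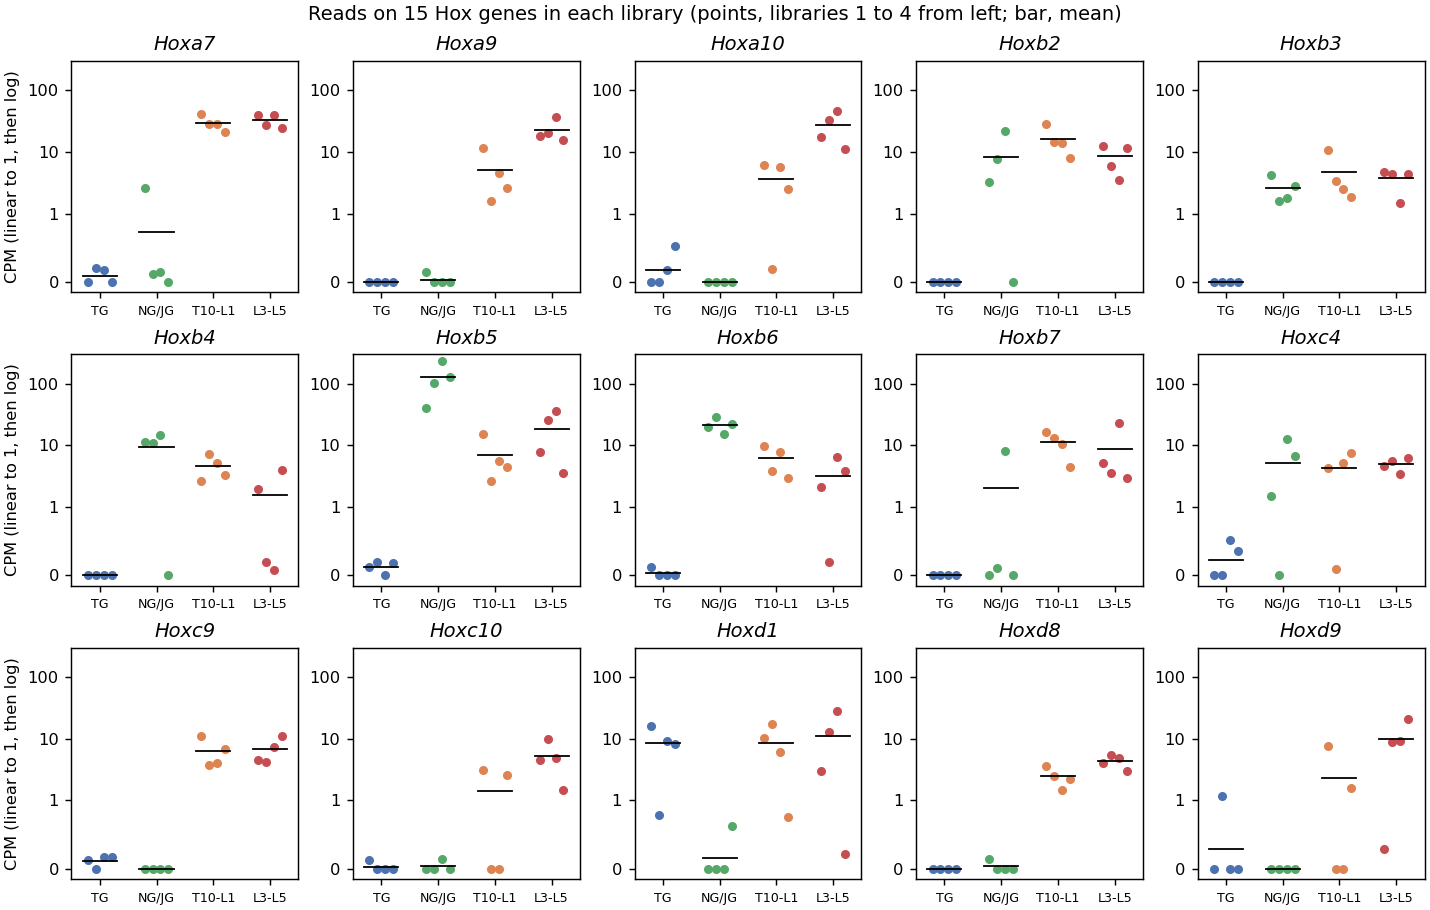
CPM of 15 Hox genes in each library (points, libraries 1 to 4 from left to right within a ganglion; bar, mean), on an axis that is linear to 1 and logarithmic above. *Hoxa9* and *Hoxa10* separate the DRG levels, *Hoxb5* and *Hoxb6* are highest in NG/JG, and *Hoxd1* has reads in TG.

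Summed over the clusters, the RPKM by paralog number gave each ganglion its own profile. TG peaked at paralog 1 with 4.59 ± 3.32 (SD, n = 4) and had at most 0.269 in the mean at the others. NG/JG peaked at paralog 5 with 45.2 ± 28.7, followed by paralog 6 with 10.4 ± 2.74, and had at most 0.0278 in the mean from paralog 8 on. T10-L1 DRG peaked at paralog 7 with 13.1 ± 4.12, where L3-L5 DRG had 13.6 ± 4.75, and L3-L5 DRG peaked at paralog 9. At paralog 9 the DRG levels had 6.79 ± 6.64 and 15.9 ± 7.99, which overlapped, and at paralog 10 they had 1.74 ± 1.33 and 11.3 ± 5.06. The paralog 10 sums of L3-L5 DRG, 6.82 to 16.1, lay above the 0.0496 to 3.19 of T10-L1 DRG in all libraries, with *Hoxa10* as the main part. Below paralog 9 the ranges of the DRG levels overlapped at every number.

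**Figure D4:**
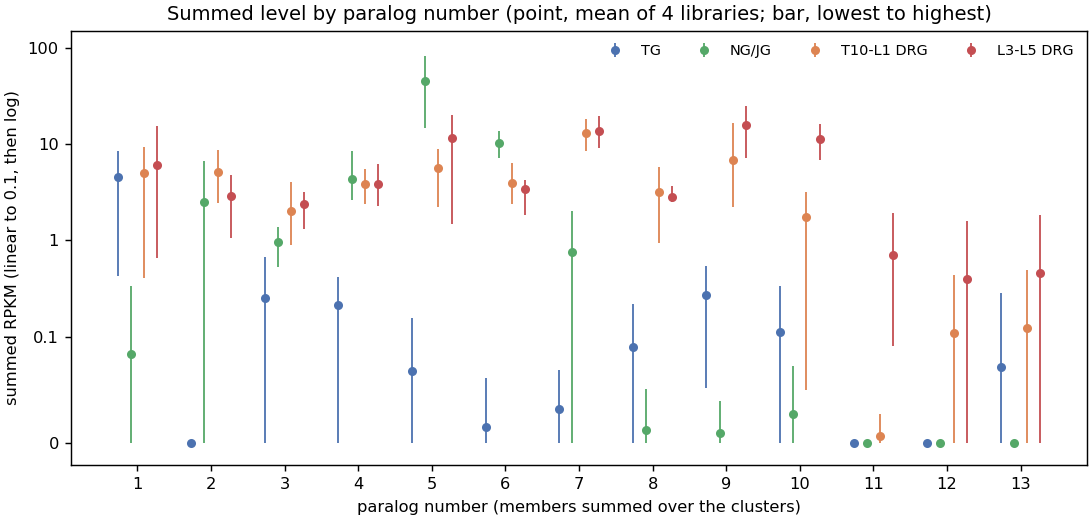
RPKM summed over the clusters by paralog number (point, mean of 4 libraries; bar, lowest to highest library; axis linear to 0.1 and logarithmic above). NG/JG peaks at paralog 5 (45.2), and L3-L5 DRG clears the T10-L1 DRG range at paralog 10 (6.82 to 16.1 against 0.0496 to 3.19).

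Paralogs 11 to 13, with 9 members in the set, set sacral and tail identity and pattern the kidney and the ends of the limbs. Their reads summed to 17, 5, 13 and 62 in L3-L5 DRG libraries 1 to 4, to 14, 0, 0 and 1 in T10-L1 DRG, to 0 in all NG/JG libraries and to 4 in 1 TG library. The 62 reads of L3-L5 DRG library 4 fell on 7 members and the 14 of T10-L1 DRG library 1 on 4, and these libraries had 66.6% and 51.5% of reads outside genes. The part of those reads in the result was not tested. In the other 3 L3-L5 DRG libraries the reads were 15 on *Hoxa11*, whose exons overlap those of *Hoxa11as* over 38.6% of their length, and 2, 5 and 13 on *Hoxd11*. *Hoxc11*, *Hoxc12*, *Hoxc13*, *Hoxd12* and *Hoxd13* had 5, 1, 16, 17 and 3 reads in library 4 and 0 in those 3. Without library 4 the members above the floor in at least 1 L3-L5 DRG library numbered 30 in place of 34, and without T10-L1 DRG library 1 they numbered 27 in place of 31.

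The edgeR calls against TG were HoxB genes of paralogs 2 to 7, *Hoxa7*, *Hoxa9* and *Hoxc9*, all of them in T10-L1 DRG. Of these only *Hoxb5* was also called in NG/JG, and 0 were called in L3-L5 DRG. For NG/JG against TG, 3 members passed the filter on low counts and 1, *Hoxb5*, was called higher at an adjusted p under 0.05 (edgeR), where 0.0510% of 11769 genes were called and 0.0170% called higher. DESeq2 called 5 of 10 higher (1.79% of genes) and 1, *Hoxd1*, lower (4.59%). For T10-L1 DRG against TG, 11 members were tested and 9 called, all higher (*Hoxa7*, *Hoxa9*, *Hoxb2* to *Hoxb7* and *Hoxc9*), with 5.87% of 12914 genes called and 1.54% called higher. At an unadjusted p under 0.05, 10 were higher (8.78% of genes), and DESeq2 called 13 of 24, all higher (5.79%). For L3-L5 DRG against TG, 13 were tested and 0 called, and 0% of 12900 genes were called. At an unadjusted p under 0.05, 11 of the 13 were higher and 0 lower, against 8.02% of genes higher and 10.1% lower, and DESeq2 called 16 of 23 higher (5.14% of genes). A member absent from TG passes the filter only if it is high in the other ganglion, so these counts rest on members that had to differ. The 9 calls fell to 0 without TG library 2, 3 or 4 or without T10-L1 DRG library 1, 2 or 3, to 1 without T10-L1 DRG library 4, and were 10 without TG library 1, whose omission also gave 11 calls for L3-L5 DRG. The call of *Hoxb5* in NG/JG was lost without TG library 2 or 3 or NG/JG library 3.

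Between the DRG and NG/JG, the trunk genes *Hoxa7*, *Hoxa9*, *Hoxc9* and *Hoxd8* had higher values in both DRG levels, and *Hoxb5* and *Hoxb6* had lower ones, without overlap. Of the members tested, 4 lay higher without overlap at T10-L1 (6.41% of genes) and 7 at L3-L5 (5.74%), and 2 lay lower at each (1.63% and 1.59%). Over all 38 members, 9 lay higher without overlap at T10-L1 and 12 at L3-L5, and 2 lower at each. The shares above cover only genes that passed the filter, so they are no background for the counts over all 38. A member at or near 0 reads in NG/JG passes the filter only if it is high in the DRG, so the higher counts rest on members that had to differ. For T10-L1 DRG against NG/JG 12 members were tested and 0 called (edgeR), with 0.0322% of 12430 genes called. At an unadjusted p under 0.05, 4 were higher (4.06% of genes) and 1 lower (1.85%), and DESeq2 called 10 higher (5.56%) and 2 lower (0.738%). For L3-L5 DRG 15 were tested and 0 called, as were 0% of 12240 genes. Unadjusted, 7 were higher (3.68% of genes) and 1 lower (2.35%), and DESeq2 called 14 higher (5.12%) and 2 lower (0.554%). *Hoxa7* had log2 fold changes over NG/JG of 5.30 at T10-L1 (SE 1.70, adjusted p = 0.381) and 5.40 at L3-L5 (SE 1.73, adjusted p = 0.408), from edgeR, with the 19 reads of NG/JG library 1 as most of the NG/JG count. The pooled ratio of *Hoxd8* over NG/JG, with its 1 read, was 75.7 at T10-L1 (13.3 to 3020) and 150 at L3-L5 (26.6 to 5970), and that of *Hoxa9* was 141 (25.1 to 5620) and 807 (145 to 31900). All comparisons with TG share the 4 TG libraries, and those with NG/JG share its 4.

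Between L3-L5 and T10-L1 DRG, *Hoxa9*, *Hoxa10* and *Hoxd3* were the members whose CPM did not overlap, all higher in L3-L5 DRG. Of 24 members tested, 0 were called (edgeR), as were 0% of 13550 genes, and DESeq2 called 0 of 31, with 0.282% of genes called higher and 0.218% lower. At an unadjusted p under 0.05, 3 were higher, against 3.35% of genes, and 0 lower, against 2.72%. CPM without overlap and higher at L3-L5 was found for 2.17% of genes. The median log2 fold change of the 24 was 0.22, and that of all 13550 genes 0.03. Over the 4 ganglia at once, 23 members were tested and 7 called (*Hoxa7*, *Hoxa9*, *Hoxa10*, *Hoxb5*, *Hoxb6*, *Hoxc9* and *Hoxd8*), with adjusted p from 0.00152 for *Hoxb5* to 0.0325 for *Hoxd8* (edgeR) and 3.01% of 14236 genes called. These 7 had 0 to 4 reads each over the TG libraries and passed the filter only through ganglia where they were high. This count too thus rests on members that had to differ. At an unadjusted p under 0.05 there were 20 (17.5% of genes). DESeq2 called 18 of 25 members, where 12.7% of genes were called. Without TG library 2, 3 or 4 edgeR called 2 members, and with any other library left out 6 to 8.

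Genes that act with Hox factors or on their clusters were read in the same tests, and over the 4 ganglia 3.01% of all genes were called by edgeR, 17.5% at an unadjusted p under 0.05 and 12.7% by DESeq2. Of 9 TALE cofactors, which bind DNA with Hox proteins, 0 were called over the 4 ganglia (edgeR), 1 at an unadjusted p under 0.05 and 1 by DESeq2. That gene, *Meis2*, had 0, 9, 53 and 109 reads in TG, 1, 0, 0 and 0 in NG/JG, 60, 31, 137 and 31 in T10-L1 DRG and 12, 19, 1 and 57 in L3-L5 DRG. Of 15 Polycomb genes, which keep Hox genes silent, 0 were called by edgeR, 1 unadjusted (*Ezh2*) and 1 by DESeq2. In T10-L1 DRG against TG, where 5.87% of genes were called, edgeR called 1 of the 15, higher, which was *Rnf2*, a ubiquitin ligase of the complex (log2 fold change 2.04, SE 0.43, adjusted p = 0.0302), named after its values were seen. Over the 4 ganglia the 9 trithorax and demethylase genes, which keep them active, had 0, 1 and 1 by the same 3 rules, with *Dpy30* as the 1. Among 15 inducers of Hox expression, retinoic acid receptors and enzymes and Cdx factors included, 11 were tested and 0 called by edgeR, with 3 unadjusted (*Rarb*, *Rxrg* and *Cyp26b1*) and 0 by DESeq2.

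The genes next to and between the Hox genes were read too. Of the 12 other transcripts inside the clusters or next to them, *Evx1*, *Evx2* and miRNA genes included, 0 had enough reads to be tested. Their summed CPM was 0 to 0.515 in TG, 0 to 2.64 in NG/JG, 0.666 to 1.22 in the T10-L1 and 2.22 to 7.81 in the L3-L5 DRG. Of 24 protein-coding genes at the flanks, 3 on each side of each cluster, 22 were tested and 1 called (edgeR), *Atp5g3*, a subunit gene of the mitochondrial ATP synthase, which was highest in TG (439 ± 225 CPM) and lay at 122 to 168 CPM in the mean elsewhere. The flank sums were 1330 to 1640 CPM in TG and 1300 to 2370 CPM in the other ganglia.

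Markers of neurons and of other cells were read in the same libraries. The 12 sensory neuron markers, *Pirt* included, summed to 1230 to 3960 CPM in TG, 1600 to 5970 in NG/JG, 2500 to 5030 in the T10-L1 and 1680 to 14100 in the L3-L5 DRG, with none at 0. Of 5 nodose markers the sum was 78.0 to 1090 CPM in NG/JG and 3.06 to 144 elsewhere, and *P2rx2*, an ATP receptor subunit, had 1304, 323, 6998 and 1 reads in NG/JG. The nodose markers *Phox2a* and *Glp1r* had 0 reads in T10-L1 DRG, but each passed the floor in at least 1 L3-L5 DRG library. *Glp1r* did so in TG as well, where *Phox2a* had 0 reads. In NG/JG *Phox2a* had 65 reads in library 1 and 0 in the other 3, and *Glp1r* had 0 in all 4. Schwann cell markers summed to 9850 to 66100 CPM and those of satellite glia to 12500 to 71500 CPM over the 16 libraries. Fibroblast markers, from a cell type that also keeps Hox expression in the adult, had sums of 4940 to 7530 CPM in TG, 358 to 3990 in NG/JG, 3590 to 12900 in the T10-L1 and 553 to 6940 in the L3-L5 DRG. Mural and endothelial markers summed to 80.4 to 784 CPM in TG, 88.7 to 342 in NG/JG, 344 to 1490 in the T10-L1 and 19.6 to 1880 in the L3-L5 DRG. Neutrophil markers had 0 to 46.0 CPM in TG and 0.341 to 31.9 in NG/JG against 100 to 1050 in the T10-L1 and 5.16 to 562 in the L3-L5 DRG, and macrophage markers 19.6 to 13700 over all libraries. Over the 4 ganglia edgeR called 1 of 12 sensory neuron markers, 1 of 3 nodose markers tested, 1 of 8 Schwann cell, 2 of 5 satellite glia, 0 of 8 fibroblast, 1 of 8 mural and endothelial, 4 of 6 neutrophil and 0 of 7 macrophage markers, where 3.01% of all genes were called. In T10-L1 DRG against TG (5.87% of genes), the comparison with the most Hox calls, it called 3 neutrophil, 1 fibroblast, 1 mural or endothelial and 1 Schwann cell marker higher, and 2 Schwann cell and 1 satellite glia marker lower. DESeq2 called 1 fibroblast marker higher and 1 lower in that comparison, where it called 2199 of 14251 genes. Over the 4 ganglia the fibroblast list had 2 at an unadjusted p under 0.05 and 0 by DESeq2, and the macrophage list 0 by either. The part of these cells in the Hox values was not tested.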

How the data were processed

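RNA from sorted sensory neurons was reverse transcribed with oligo dT by SMART-seq2 and sequenced as single reads. Per the paper's methods and the labels, the authors demultiplexed with CASAVA or bcl2fastq, aligned with TopHat2 (mm9) and used HTSeq-count to count reads for each gene. The tables deposited hold raw counts, and annotation, strand setting and tool versions are not given in the sources used here. The counter's own totals of uncounted reads were left out of library sizes.

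The members, gene lists and markers were chosen with earlier results of these data known. Named in full are members called by edgeR in any of the 7 tests, the leading members of each cluster by mean RPKM, the most 5′ member detected per cluster, and those the study names, 15 in all, with the other 23 given by ranges and counts. Of each list at most 4 genes are named, those with the lowest p over the 4 ganglia. *Pirt*, *Phox2a*, *Glp1r*, *Evx1*, *Evx2* and *Rnf2* are named outside that rule, as are transcripts inside the clusters that share exon sequence with a Hox gene.

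Each of the 6 pairs was compared on its 8 libraries with edgeR 4.0.16 in R 4.3.3 (TMM factors, filterByExpr, the two-sided quasi-likelihood test, Benjamini-Hochberg adjustment over all genes tested, threshold 0.05), and the 4 ganglia together on all 16. The fit was tested on simulated data first. DESeq2 1.42.0, RLE factors, no filter, 1 fit of all 16 libraries, the replicate block and each library left out were alternatives. Same-numbered libraries are not said to share animals, and their deviations correlated at -0.12 to 0.18, so the number was not taken as a pairing. RPKM used the union of exons of GENCODE M1 on the assembly of mm9 (a length for 21627 symbols, 45 more by synonym, none for 937). Library pairs of a ganglion differed well beyond counting noise, but not evenly. The chi-square per gene was 29.9 to 33.3 among TG libraries 2 to 4 and 214 to 233 between these and TG library 1. In the other ganglia it was 62.5 to 375. Promoter windows came from RefSeq on GRCm38.p6. Tables and plots were made in Python 3.11.15 (pandas 2.3.3, numpy 2.4.6, scipy 1.17.1, matplotlib 3.10.9).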

Additional observations from a re-analysis of the deposited data

Results flagged for a closer look

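In 26 of 89 groups of 4 libraries, the highest or the lowest value stood off from the other 3 by more than Dixon's 95% limit. Chance passes this limit in about 1 in 20 groups of normally distributed values, a rate that does not hold for sparse counts, and in 14 of the 26 the other 3 libraries had 0 reads, so the limit was passed by construction. T10-L1 DRG library 1 was high in CPM for *Hoxa4* (3.67), *Hoxb1* (3.82), *Hoxb3* (10.9), *Hoxc13* (1.07) and *Hoxd12* (0.764). L3-L5 DRG library 4 was high for *Hoxb1* (1.27), *Hoxc11* (1.06), *Hoxc13* (3.38) and *Hoxd12* (3.59), and low for *Hoxa5* at 0.422 CPM, where the other 3 had 8.83 to 10.3. These libraries had the largest shares of reads outside genes, 51.5% and 66.6%, whose part in the result was not tested.

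L3-L5 DRG library 3 was high for *Hoxa4* (2.88 CPM) and *Hoxb7* (23.3) and low for *Hoxb3* (1.48) and *Hoxc6* (0.824). In the other T10-L1 DRG libraries, *Hoxa2* stood at 1.48 CPM in library 3 and *Hoxd10* at 0.675 in library 4. In NG/JG, library 3 was high for *Hoxa3* (2.90 CPM) and *Hoxb7* (8.02), library 1 for *Hoxa7* (2.64) and library 4 for *Hoxd1* (0.620). The weighted mean paralog number of NG/JG library 3 was 4.83, below the 5.06 to 5.08 of the other 3. In TG, library 2 was high for *Hoxd3* (3.93 CPM) and *Hoxd9* (1.18), library 3 for *Hoxa3* (1.37) and library 4 for *Hoxb9* (0.878) and *Hoxc13* (0.702).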

How the results depend on the processing

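Counts of Hox genes called moved with the test. DESeq2 called 6 for NG/JG against TG (1 by edgeR), 16 for L3-L5 DRG against TG (0), 12 and 16 for T10-L1 and L3-L5 DRG against NG/JG (0 and 0) and 18 over the 4 ganglia (7). All 16 libraries in one fit gave 5, 6, 5, 1 and 3 for NG/JG, T10-L1 DRG (9) and L3-L5 DRG against TG, and T10-L1 and L3-L5 DRG against NG/JG. Without the filter, 3 were called for T10-L1 DRG against TG (9 with it) and 3 for L3-L5 DRG against TG. With the replicate block, the calls fell to 0 for NG/JG against TG, 0 for T10-L1 DRG against TG and 3 over the 4 ganglia, and the other counts stayed at 0. Same-numbered libraries share only a number. With 1 library left out, the counts ran from 0 to 1 for NG/JG against TG, 0 to 10 for T10-L1 DRG against TG, 0 to 11 for L3-L5 DRG against TG and 2 to 8 over the 4 ganglia. The cause was not tested.

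Summed as CPM, a different unit, the Hox levels were 12.2 in TG, 178 in NG/JG, 141 in T10-L1 DRG and 213 in L3-L5 DRG. With equal weights the mean paralog number of NG/JG was 4.56. With 2 of 4 libraries asked for, the most 5′ paralogs of HoxA, HoxB, HoxC and HoxD were 10, 9, 10 and 9 in T10-L1 DRG, and in L3-L5 DRG 11, 9 and 11 for HoxA, HoxB and HoxD. With 1 library left out, summed RPKM was 4.67 to 6.93 in TG, 49.3 to 75.3 in NG/JG, and for the DRG 38.9 to 56.5 at T10-L1 and 65.3 to 81.4 at L3-L5. Of 42 log2 fold changes run under the alternatives, 3 turned their direction, all smaller than their standard errors. *Hoxd1* in T10-L1 DRG against TG (-0.33) ran from -0.86 to 0.09 with 1 library left out. In L3-L5 DRG against TG (0.13) it ran from -0.96 to 0.68 and was -0.70 with the replicate block. *Hoxc9* between the DRG levels (0.03) ran from -0.29 to 0.39 and was -0.00 without the filter. The counts without T10-L1 DRG library 1 (27 members) and L3-L5 DRG library 4 (30) were chosen after seeing the data. Counts of 3 or fewer were not detectable at this depth.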
